A study of Mus musculus with 9 samples.

Results

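Clec9a, which encodes the dead-cell receptor DNGR-1, sits in a cluster of lectin receptor genes on mouse chromosome 6, and 10 genes of that stretch are described here in pre-cDCs that have or lack DNGR-1. The 10 were taken by symbol from a table of 51912 genes, and in chromosome order they are Clec2d, Clec12a, Clec12b, Clec1b, Clec9a, Clec1a, Clec7a, Olr1, Gabarapl1 and Klrk1. All 10 were found. The locus was chosen by the BM fold changes of Clec9a and Clec7a between genotypes, known from earlier results, so the BM values of those genes are a description of the locus and not a test of it.

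Bulk RNA-seq was made of pre-cDCs, the committed precursors of cDCs, sorted from mixed BM chimeras by CD43 and CD135 after removal of lineage-positive cells. WT donors were BL/6 mice with CD45.1. Donors without DNGR-1, called KO from here on, were Clec9aCre/Cre mice with CD45.2, a line made from BL/N-derived embryonic stem cells in which Cre sits in the Clec9a gene, backcrossed 10 times to C57BL/6J. Both were given at a 1:1 ratio to the same lethally irradiated BL/6 CD45.1/2 hosts, so every sample came from an irradiated host, 16 weeks after transplantation, of mice aged 6 to 12 weeks at the start. BM gave 3 samples of each genotype, and spleen gave 1 WT sample and 2 KO samples. Each sample pooled 10000 to 20000 cells of 2 mice, and 6 mice were used in all, so samples of different groups shared mice. For WT samples the label fields disagree on the CD45 allele (CD45.1 or CD45.2), and that of the study's methods, CD45.1, is given here. The Clec9aCre allele, the DNA around it that came from the stem cells and the CD45 allele differ together between the donors, so their parts in any difference between genotypes cannot be told apart. Totals were 17103806 to 23722298 counts per sample, at which 3 counts are 0.127 to 0.175 CPM (counts scaled to a normalized library size), a floor that covers counting error only. Summed markers of cDC precursors (Flt3, Itgax, Zbtb46, Irf8 and Sirpa) were at 2525 to 4468 CPM in BM and 1359 to 2530 CPM in spleen, and each of the 5 markers had more than 3 counts in some sample of both tissues. In the 3 spleen samples T cell markers summed to 690.2 to 3060.0 CPM and NK cell markers to 266 to 1437 CPM, against 1.08 to 9.05 and 14.1 to 41.2 CPM in BM. As these are bulk samples, fewer cells of a type and less RNA per cell cannot be told apart.

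C-type lectin receptors are membrane proteins whose extracellular domain has a lectin fold, and many of this cluster bind proteins or exposed cell contents and not sugars. Some have a short tail with an activating motif that recruits SYK, as in DNGR-1 and dectin-1. Others have an inhibitory motif that recruits phosphatases, as in Clec12a and Clec12b. The cluster joins the natural killer gene complex, many of whose Klr genes encode receptors of NK cells and of some T cells. DNGR-1 is a marker of cDC1s and of their precursors and binds the F-actin that dying cells expose.

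The 10 genes spread over 443.2 kb of GRCm38, from Clec2d at 129180615 to 129186534 to Klrk1 at 129610323 to 129623864. Clec9a (ENSMUSG00000046080) lies on the plus strand at 129408862 to 129424763. Its last base is separated by 8 bases from Clec1a, which is on the minus strand at 129424772 to 129452000, so that the 3′ ends of these genes face each other. On its other side Clec9a overlaps Clec1b, on the same strand at 129397297 to 129409335, by 474 bases, of which 184 are exonic in both. Clec7a (ENSMUSG00000079293), which encodes the β-glucan receptor dectin-1, is on the minus strand at 129461591 to 129472779, 52.7 kb from the start of Clec9a, and the annotation lists it as a polymorphic pseudogene. How the authors' counting assigned reads that overlapping or facing genes share, and whether it used strand, is not given in the sources used here.

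The promoters of Clec9a and Clec7a, whose BM values differed between the genotypes in opposite directions, are printed because each holds a composite of an interferon regulatory factor (IRF) half-site and an ETS factor half-site, the kind of element that IRF8 or IRF4 can bind with PU.1. The sequences are from RefSeq (GRCm38.p6), run 5′ to 3′ from 250 bases before to 50 after a start, and capitals mark the composite. That of Clec9a is chr6:129408612-129408911 on the plus strand and that of Clec7a is chr6:129472730-129473029 on the minus strand.
Clec9a: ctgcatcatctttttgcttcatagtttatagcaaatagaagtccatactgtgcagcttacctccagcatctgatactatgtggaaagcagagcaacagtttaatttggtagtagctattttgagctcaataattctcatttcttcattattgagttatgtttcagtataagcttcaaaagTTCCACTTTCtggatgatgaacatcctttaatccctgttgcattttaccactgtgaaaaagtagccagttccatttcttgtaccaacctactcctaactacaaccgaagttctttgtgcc
Clec7a: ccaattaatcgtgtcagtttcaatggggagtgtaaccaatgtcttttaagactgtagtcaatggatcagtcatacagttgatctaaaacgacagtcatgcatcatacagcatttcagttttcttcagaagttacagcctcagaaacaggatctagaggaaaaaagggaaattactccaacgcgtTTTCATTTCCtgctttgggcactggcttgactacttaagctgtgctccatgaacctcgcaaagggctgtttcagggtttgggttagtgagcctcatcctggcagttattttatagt
The letters searched, on both strands, were GAAANNGGAA (IRF then ETS) and GGAANNGAAA (ETS then IRF), together with TGANTCA, an AP-1 site. The Clec9a match begins at base 181 and reads GAAAGTGGAA on the other strand, and the Clec7a match begins at base 185 and reads GGAAATGAAA on the other strand. Clec12a held 2 matches of the first composite and Klrk1 held 1 of the second. AP-1 letters were found in Clec12a, Olr1 and Klrk1. Among 32851 promoters of that length, 2.80% held the first composite, 2.71% the second and 7.81% the AP-1 letters. These motifs were picked with the genes in view, and a match is a description of letters and not of a bound site.

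Levels are compared between genes only per kb of annotated exon. In WT BM pre-cDCs Clec12a, an inhibitory receptor for uric acid crystals, was at 51.95 ± 10.4 CPM per kb and Gabarapl1, an ATG8 family protein of autophagosomes, at 46.2 ± 9.66 (SD, n = 3 for each level). Clec9a followed at 22.8 ± 5.68, Clec7a at 14.1 ± 2.70 and Klrk1, which encodes the NKG2D receptor, at 8.30 ± 2.14 CPM per kb. The other 5 genes were low, in the order Clec2d (1.06 ± 0.669), Clec1a (0.809 ± 0.252), Clec1b (0.184 ± 0.168), Olr1 (0.120 ± 0.156) and Clec12b (0.0209 ± 0.0363 CPM per kb). The samples of neighbours in this order overlapped for Clec12a and Gabarapl1, for Clec9a and Clec7a, for Clec2d and Clec1a, and among Clec1b, Olr1 and Clec12b.

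**Figure D1:**
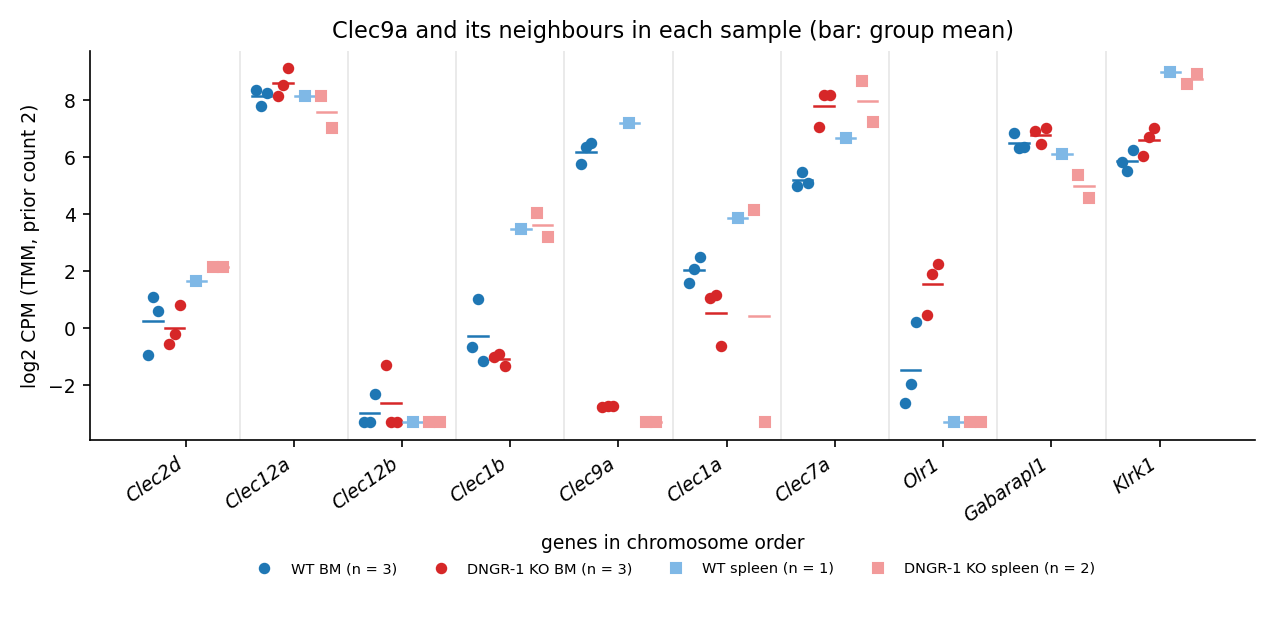
Each point is 1 sample and each bar a group mean of log2 CPM (normalized by TMM, prior count 2), with the 10 genes in chromosome order from left to right. Clec9a points of the KO samples lie at the bottom of the scale, Clec7a points of KO BM lie above those of WT BM, and Klrk1 and Clec1b points of spleen lie above those of BM.

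The gene that carries the KO allele was examined first. Clec9a was counted 905, 1574 and 1766 times in the WT BM samples and 1 time in every KO BM sample. The spleen samples held 2459 counts for WT and 0 for each KO. All 9 samples thus followed their genotype label, with no overlap. Normalized levels were 75.2 ± 18.7 CPM in WT BM (SD, n = 3) and 146 CPM in the WT spleen sample. The WT over KO ratio in BM was 1597 on summed counts (95% counting interval 546 to 7748), and WT spleen was at least 869.9-fold higher than KO spleen, with a floor of 3 counts per library. Gm43914, a sense intronic transcript inside Clec9a, was counted 20, 35 and 16 times in WT BM and 0 times in KO BM, at least 8.48-fold lower. It was counted 1 time in the WT spleen sample, where Clec9a itself was higher than in any BM sample.

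Among the 10 genes, Clec7a and Olr1 were higher in KO than in WT BM without overlap, as were 4.79% of all 13016 genes tested. Clec7a counts were 532, 870 and 672 in WT BM and 3010, 5951 and 5891 in KO BM, and no KO sample overlapped a WT sample. This is 37.1 ± 7.13 against 240.1 ± 91.4 CPM (SD, n = 3), a log2 fold change of 2.69 (standard error 0.34). KO BM sample 1 was the lowest of its group, at 135 CPM. In spleen the counts were 1731 in the WT sample and 7391 and 3557 in the KO samples, so both lay above the WT sample, by 2.01 and 0.55 on the log2 CPM scale. The WT spleen sample has no replicate, and the median of all genes tested was 0.028 on this scale for the mean of the KO spleen samples minus the WT sample.

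Dectin-1 is made by several kinds of myeloid cell, so monocyte and cDC2 markers are set beside Clec7a. The 8 monocyte and macrophage markers summed to 2682 to 3102 CPM in WT and 3073 to 4685 CPM in KO BM, which overlapped, and KO BM sample 1, the lowest for Clec7a, was also the lowest of its group for this sum. The 5 cDC2 markers summed to 316 to 394 CPM in WT and 416 to 647 CPM in KO BM, without overlap. Of the cDC2 list Clec4a4 was at 0 counts in WT BM and at 0 to 5 counts in KO BM. In spleen the WT sample had the highest monocyte sum, 5775 CPM against 3160.0 and 3897 CPM in KO, and the highest cDC2 sum, 1525 against 690.4 and 731 CPM, while its Clec7a was the lowest of the 3. Within the cDC2 list Clec4a4 went against that sum in spleen, with 11 counts in the WT sample and 157 to 497 in the KO samples. The other cDC2 markers are not given one by one here. The part of these cells in the Clec7a values was not tested.

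Olr1 and Clec1a, on either side of Clec7a, were low and also did not overlap between genotypes in BM. Olr1, which encodes the oxidized LDL receptor LOX-1, was counted 1, 3 and 21 times in WT and 29, 75 and 93 times in KO BM, which gave a log2 fold change of 2.87 (standard error 0.999). WT sample 3 held most of the WT counts. Clec1a, a receptor for fungal melanin, was counted 49, 79 and 109 times in WT and 45, 44 and 11 times in KO BM, a log2 fold change of -1.42 (standard error 0.62). This is 2.93 to 5.54 CPM against 0.552 to 2.15 CPM, and raw counts of the lowest WT sample and the highest KO sample lay only 4 apart. Neither Olr1 nor Clec1a passed the threshold (edgeR adjusted p = 0.861 for each). Over all 13016 genes tested, groups lay apart with KO lower in 4.76%. The 3′ end of Clec1a faces that of Clec9a, and the part of reads from one gene counted for the other was not tested.

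The remaining genes overlapped between the genotypes in BM. Clec12a was counted 5525, 4281 and 6072 times in WT and 6333, 7574 and 11128 times in KO BM, which gave a log2 fold change of 0.49 (standard error 0.29). Klrk1 was counted 947, 885 and 1501 times in WT and 1495, 2145 and 2598 times in KO BM, which gave a log2 fold change of 0.75 (standard error 0.30). On the CPM scale the lowest KO sample lay among the WT samples for both, at 283 CPM against 222 to 331 CPM for Clec12a and at 66.9 CPM against 45.95 to 76.3 CPM for Klrk1. Gabarapl1 had a level of 93.0 ± 19.4 CPM for WT against 113 ± 22.4 CPM for KO in BM (SD, n = 3), a log2 fold change of 0.28 (standard error 0.25). Its antisense neighbour 1700101I11Rik, which shares 570 exonic bases with it, was at 0.594 CPM over the 6 BM samples, against 103 CPM for Gabarapl1. Clec2d, the ligand of inhibitory NKR-P1 receptors, had 7 to 39 counts in WT BM, overlapping the 13 to 33 of KO BM. Clec1b, the podoplanin receptor CLEC-2 of platelets, was counted 9, 37 and 7 times in WT and 9, 9 and 6 times in KO BM. Clec12b, an inhibitory receptor, was counted 2 times in 1 WT and 7 times in 1 KO BM sample and 0 times in the other 7 samples.

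Of the 10 genes, 8 passed edgeR's filter on low counts in BM (all but Clec12b and Clec1b), and 2 passed an adjusted p of 0.05 of its quasi-likelihood test, Clec9a lower and Clec7a higher in KO. With either direction counted, 5 of the 8 had an unadjusted p under 0.05. Over all 13016 genes tested 0.0307% passed the adjusted p, 0.0154% as higher and 0.0154% as lower, 3.83% had an unadjusted p under 0.05, and 4.79% and 4.76% had groups apart with KO higher and lower, respectively. Since this contrast chose the locus, nothing is read from these counts. Clec7a passed in 1 of the 6 fits that left out a BM sample, the one without KO sample 1. It did not pass without WT sample 1, 2 or 3 or without KO sample 2 or 3, although its log2 fold change lay between 2.52 and 2.98 in all 6 fits. Clec9a passed in all 6. With limma on the VST values 0 of the 10 genes passed, and Clec7a did not pass with the chromosome 1 score (mean level of genes near Ptprc, which encodes CD45) as a covariate or with all 9 samples in one fit. The score overlapped between the genotypes, at -0.27 to 0.16 in WT and -0.15 to 0.15 in KO BM. With it the Clec7a log2 fold change was 2.665 (standard error 0.34), against 2.69 without it. As the score did not separate the genotypes, this fit cannot show the part of the CD45 allele in the Clec7a values, which was not tested.

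The other annotated genes around Clec9a give the setting. Within 1 Mb of its start the annotation lists 105 genes, of which 44 had no count in any sample, among them Tmem52b between Olr1 and Gabarapl1. Beside the 10 genes, 20 of the other 95 were tested in BM and 0 passed with edgeR, with 1 at an unadjusted p under 0.05 (Gm43914). DESeq2 called 1, which was Gm43914, and limma-voom called 0. The 3 highest of these log2 fold changes were Klrb1b (1.84, standard error 1.22), Klra3 (1.52, standard error 1.21) and Clec2i (0.95, standard error 0.48). The 3 lowest were Gm43914, Gm10069 (-0.90, standard error 0.70) and Clec2f (-0.51, standard error 0.55). The fitted value for Gm43914 is set by the 0 counts in KO, and the bound given above stands in its place.

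**Figure D2:**
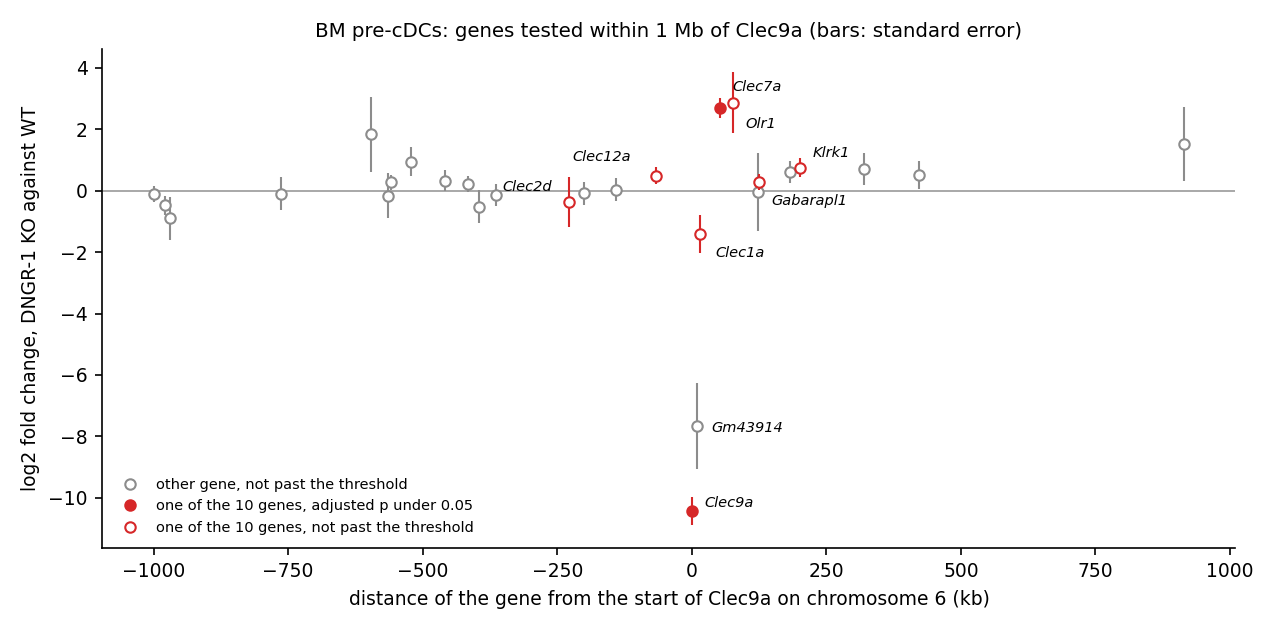
Log2 fold change of KO against WT BM pre-cDCs (3 against 3 samples, bars are standard errors) against the distance of a gene from the start of Clec9a in kb, for the 28 genes tested within 1 Mb. Clec9a and Gm43914 lie far below 0, Clec7a and Olr1 lie near 2.69 and 2.87, and the values of Clec9a and Gm43914 depend on how counts at or near 0 are treated.

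Spleen was then compared with BM in a fit of all 9 samples that allowed for genotype, a contrast that did not choose the genes. Klrk1 and Clec1b rose and Olr1 and Gabarapl1 fell in spleen, 4 of the 9 genes tested, beside 19.5% of 13468 genes (7.28% higher, 12.3% lower). Clec1b did not pass the filter in BM and Olr1 had 0 counts in spleen, so each was tested through a single tissue, which fixed its direction. The count of 4 is therefore not read against the share of all genes, and the values of Clec1b and Olr1 are a description. When the chromosome 1 score was added as a covariate, 0 of the 9 genes passed, beside 98 of all 13468. The standard errors of all 4 genes grew in that fit, for Klrk1 from 0.28 to 0.53. For Klrk1 the spleen counts were 8618 in the WT and 6871 and 11491 in the KO samples. Its level was 80.1 ± 31.7 CPM in BM (SD, n = 6) and 462 ± 67.4 CPM in spleen (SD, n = 3), a log2 fold change of 2.53 (standard error 0.28, edgeR's quasi-likelihood test, adjusted p = 0.000519). All spleen samples lay above all BM samples. Clec1b was counted 187 times in WT and 295 and 216 times in KO spleen, and its log2 fold change was 4.54 (standard error 0.75, edgeR adjusted p = 0.00358). Clec9a, which shares bases with it, was at 0 counts in the KO spleen samples, and the part of shared reads in the Clec1b counts was not tested.

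Olr1 was counted 0 times in all 3 spleen samples and was at least 10.2-fold higher in BM, with a floor of 3 counts per library (edgeR adjusted p = 0.0181). Set against KO BM alone, it was at least 17.9-fold higher there. KO BM held 197 of the 222 Olr1 counts in BM. WT BM samples 1, 2 and 3 held 1, 3 and 21, so WT samples 1 and 2 were at or under the floor themselves. No bound is given for WT BM alone. Gabarapl1 was counted 1160 times in WT and 744 and 568 times in KO spleen, which is 45.0 ± 22.7 CPM in spleen (SD, n = 3) against 103 ± 21.8 CPM in BM (SD, n = 6). Its log2 fold change was -1.21 (standard error 0.34, edgeR adjusted p = 0.0366), and the highest spleen sample lay below the lowest BM sample. With the replicate number as a block neither passed (edgeR adjusted p = 0.0556 for Olr1 and 0.139 for Gabarapl1). Neutrophil markers were also lower in spleen: their sum was 839 to 2631 CPM in BM and 0 to 0.974 CPM in spleen, where 7 of the 8 had at most 3 counts in every sample, and their part in the Olr1 and Gabarapl1 values was not tested. Gabarapl1 did not pass in 6 of the 9 fits that left out 1 sample: without WT BM sample 1, any KO BM sample or either KO spleen sample.

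Other values in spleen did not pass the test. Clec2d was counted 51 times in WT and 77 and 103 times in KO spleen, 3.91 ± 0.753 CPM against 1.15 ± 0.647 CPM in BM, with all spleen samples above all BM samples (log2 fold change 1.79, standard error 0.73, edgeR adjusted p = 0.117). Clec12a was counted 4834, 5127 and 3066 times, and Clec7a had a log2 fold change of 0.76 (standard error 0.39, edgeR adjusted p = 0.215). Clec1a was counted 242 times in WT spleen, 313 times in KO spleen sample 1 and 0 times in KO spleen sample 2. The WT spleen sample was at least 113-fold higher than that last sample, while the first KO sample lay above WT. Without KO spleen sample 2, Clec1a and Clec7a passed the tissue test as higher in spleen, with log2 fold changes of 2.74 and 1.15.

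**Figure D3:**
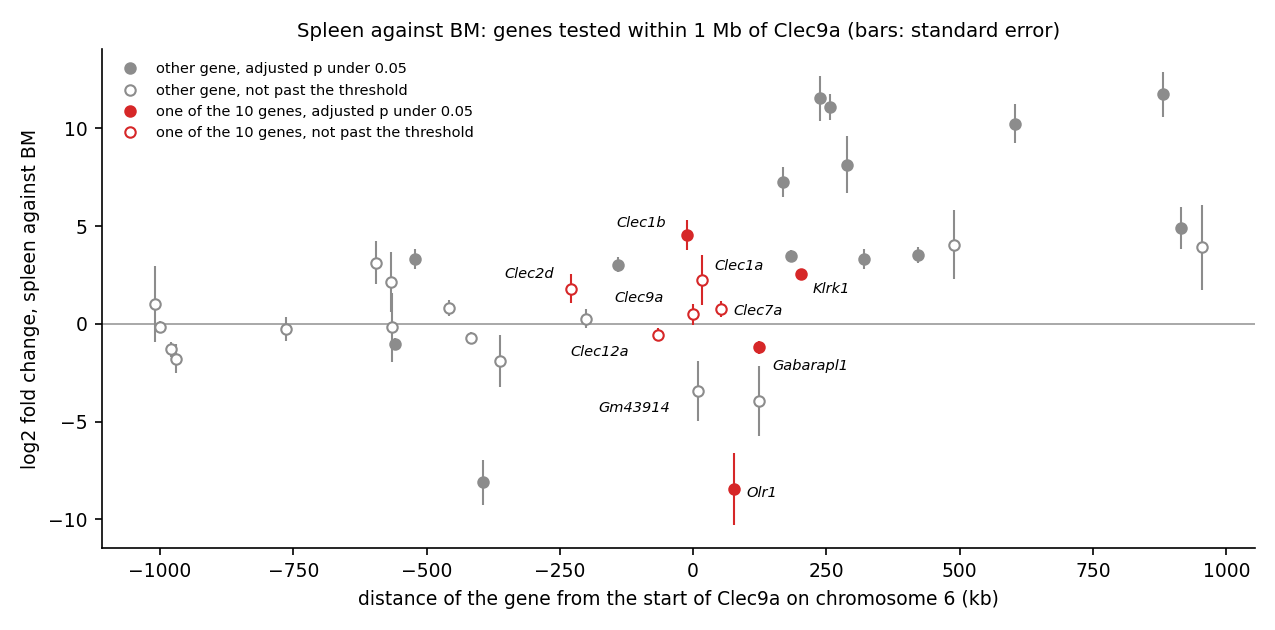
Log2 fold change of spleen (3 samples) against BM (6 samples) pre-cDCs, with standard errors, against the distance of a gene from the start of Clec9a in kb, for the 39 genes tested within 1 Mb. Filled points passed an adjusted p of 0.05, and most of those to the right of Clec9a are Klr genes with values above 0.

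Klrk1 lies among the Klr genes of the natural killer gene complex. Of 26 other Klr genes within 1 Mb, 14 were tested between tissues, of which 10 rose in spleen and 0 fell, beside 7.28% and 12.3% of all genes tested. Only 6 of the 26 passed the filter on low counts in BM. Klre1, Klrc2, Klrc1, Klri1, Klra6 and Klra13-ps did not, so they were tested through their spleen counts and could only rise. Nothing is read from this count for that reason. The 4 that did not pass were Klrb1b, Klrb1f, Klra5 and Klra1, of which Klrb1f had a log2 fold change of -1.89 (standard error 1.32). Klrb1f was counted 0 times in the WT spleen sample and 367 and 274 times in the KO spleen samples. Its interaction of genotype and tissue, 11.44 on the log2 scale, is set by the 0 counts of that single WT sample. Klrd1, which encodes CD94, was at 46.2 ± 21.4 CPM in BM (SD, n = 6) and 517 ± 61.7 CPM in spleen (SD, n = 3). Klrc1, which encodes NKG2A, was counted 0 to 4 times in BM and 598, 1954 and 6479 times in the spleen samples. Klrc1 was thus highest in KO spleen sample 2, the sample with the highest T cell and NK cell sums, whereas Klrk1 was not highest in that sample on the CPM scale. The other 8 that rose were Klre1, Klrc2, Klri1, Klri2, Klra17, Klra6, Klra13-ps and Klra3, and as Klra genes are closely similar copies their counts are uncertain. Outside the Klr genes, Clec2i and Cd69, an early activation receptor of lymphocytes, rose in spleen and BC035044 and Clec2f fell. Clec2f had 0 counts in spleen and was tested through BM, so it could only fall.

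Markers of lymphocytes differed between tissues beside Klrk1. The NK cell markers Ncr1, Eomes, Gzma and Prf1 had at most 3 counts in every BM sample, and the NK cell sum in BM came from Nkg7. In BM, Klrk1 was thus counted 885 to 2598 times in samples where 4 of 5 NK cell markers were at or near 0, and T cell markers summed to at most 9.05 CPM. In spleen each NK cell and T cell marker had more than 3 counts in some sample, and the part of such cells in the Klrk1 values there was not tested. For Clec1b the platelet markers went the other way: Pf4, Ppbp, Itga2b, Gp1bb and Gp9 had at most 3 counts in every spleen sample, with a sum of 0 to 0.0424 CPM, against 6.34 to 64.05 CPM in BM. The part of platelets and megakaryocytes in the Clec1b values of either tissue was not tested.

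**Figure D4:**
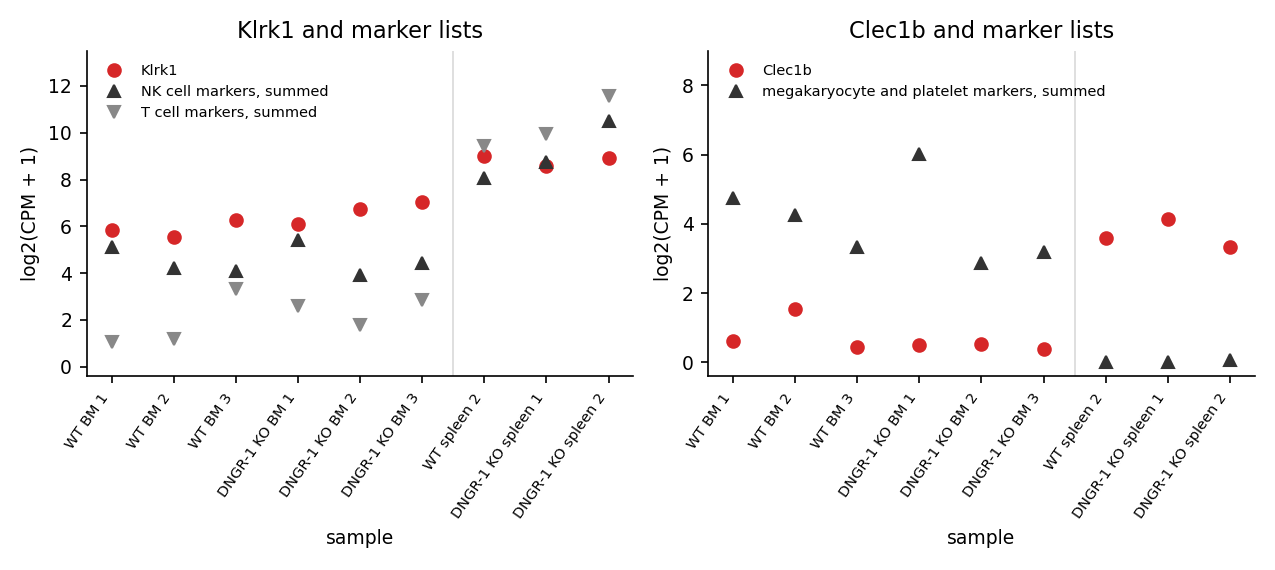
The log2 of CPM + 1 of Klrk1 with the summed NK cell and T cell markers (left) and of Clec1b with the summed megakaryocyte and platelet markers (right), for each of the 9 samples. Klrk1 and both lymphocyte sums are higher in the 3 spleen samples, while Clec1b is higher in spleen, where the platelet sum is at or near 0.

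Whether the genotype difference itself differed between tissues was tested as an interaction over all 9 samples, in which the single WT spleen sample was assumed to vary like the other groups. With edgeR 0 of 9 genes passed and 2 had an unadjusted p under 0.05 (Clec9a and Gabarapl1), beside 8.85% and 22.3% of all genes, and with DESeq2 0 passed. For Clec7a the interaction was -1.24 on the log2 scale (standard error 0.74, edgeR adjusted p = 0.366). For Gabarapl1 it was -1.35 (standard error 0.51, edgeR adjusted p = 0.163). Both KO spleen samples were below the WT sample for Gabarapl1, by 0.73 and 1.52 on the log2 CPM scale, whereas BM samples overlapped. Without KO spleen sample 1 the fit held 1 spleen sample of each genotype, so only its effect sizes are given. The interaction was then -2.15 for Clec7a, -1.81 for Gabarapl1 and -9.77 for Clec1a, on the log2 scale. For Clec1a it was 0.70 with all samples, and the value of -9.77 rests on the 0 counts of KO spleen sample 2. Clec12a differed from the WT spleen sample by -0.00089 and -1.15, Klrk1 by -0.41 and -0.077, Clec1b by 0.57 and -0.28 and Clec2d by 0.49 and 0.51 in KO spleen samples 1 and 2.

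**Figure D5:**
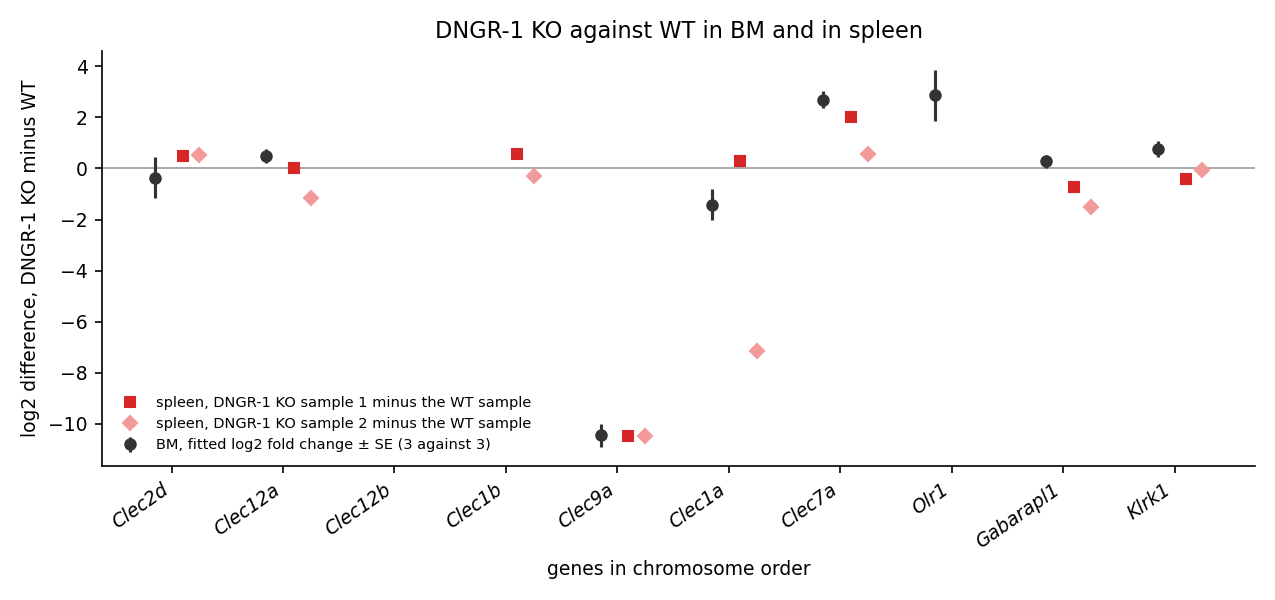
KO minus WT on the log2 scale for the genes in chromosome order, as the fitted fold change in BM with its standard error (3 against 3 samples) and as each KO spleen sample minus the WT spleen sample (no error, 1 WT sample). Clec7a lies above 0 in all, Gabarapl1 is at 0.28 in BM and below 0 in spleen, genes without enough counts have no point, and Clec9a values depend on how counts of 0 and 1 are treated.

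Partners of these receptors were looked at as lists. The SYK and CARD9 pathway, through which dectin-1 signals, had 7 of 8 genes tested in BM and 0 past the threshold with edgeR, DESeq2 or limma-voom, with 0 at an unadjusted p under 0.05. The median log2 fold change of these 7 was 0.42, beside -0.0045 over all genes tested. Phosphatases of inhibitory receptors, adaptors and ligands of NKG2D, the ATG8 family, and ligands and partner receptors of the cluster likewise had 0 genes past the threshold in BM with these 3 tools, and 0 at an unadjusted p under 0.05. The dectin-2 cluster, a separate group of lectin genes, had 6 of 9 genes tested and 0 past, with 1 at an unadjusted p under 0.05.

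Between tissues the counts differed from list to list. Hcst, which encodes the NKG2D adaptor DAP10, also rose in spleen, by 3.15 on the log2 scale (standard error 0.37, edgeR adjusted p = 0.000719), as 1 of 3 genes tested in its list. Its counts were 71 to 168 in BM and 561 to 2084 in spleen, without overlap. Within spleen the WT sample was lowest for Hcst, at 33.4 CPM against 47.5 to 88.3 CPM in KO. It was highest for Klrk1, at 513 CPM against 386 to 487 CPM. The part of T and NK cells in the Hcst values was not tested. Gabarapl2 rose by 1.53 (standard error 0.18, edgeR adjusted p = 0.000782), opposite to Gabarapl1 of the same ATG8 family, and the other 3 of the list did not pass. Anxa1, which encodes annexin A1, a ligand of dectin-1, rose by 1.95 (standard error 0.33, edgeR adjusted p = 0.00406). Of the dectin-2 cluster 8 were tested, Clec4a1, Clec4a3, Clec4a4 and Clec4n rose, and Clec4e fell, beside the neutrophil sums given above. Clec4a4 and Clec4n did not pass the filter in BM, and Clec4e had at most 3 counts in spleen, so the filter fixed their direction. Podoplanin (Pdpn), the ligand of CLEC-2, was counted 0 times in all 9 samples. With edgeR 0 genes passed in the SYK and CARD9 list and in the phosphatase list, with 0 at an unadjusted p under 0.05 in each, and 0 passed with DESeq2 or limma-voom.

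The genes whose pattern over the 9 samples was most like that of Clec9a and of Clec7a were ranked by the root mean square difference of mean-centred log2 CPM, over 13468 genes. For Clec9a these were Nefh, Ctse, Hist1h2aj, Mfsd9 and Gm9958, at 3.02 to 3.28, beside a root mean square of 4.69 for Clec9a about its own mean, so that none followed it closely. For Clec7a they were Adam19, Rab7b, Adora3, Nlrp3 and Yod1, at 0.677 to 0.775, beside 1.31 for Clec7a itself. Adam19, a membrane metalloprotease, was at 4.67 to 14.2 CPM in WT BM and 12.6 to 29.6 CPM in KO BM, which overlapped. Of these 10 genes Ctse, Mfsd9, Rab7b and Yod1 are on chromosome 1, which also carries Ptprc, the gene of CD45, whose allele differs between the donors. Their distances from Ptprc and the share of chromosome 1 among all genes searched are not given here. The part of the CD45 allele in these patterns was not tested.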

How the data were processed

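RNA of 9 pre-cDC samples was extracted (RNeasy Micro), depleted of ribosomal RNA (KAPA Hyper prep with Riboerase) and sequenced with DNBSEQ technology. The authors deposited expected counts per gene, not normalized (25.6% of nonzero values not whole), and log2-scale values after variance stabilizing transformation (VST) with a floor of 8.43. The submitters' processing notes name Trimmomatic 0.36, STAR 2.5.2, RSEM 1.3.0, DESeq2 1.18.1, R 3.4.3 and GRCm38. Reads of paralogs or overlapping genes may have been divided by the authors' counting.

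The design was written for raw counts. Before testing, the deposited expected counts were rounded. edgeR 4.0.16 in R 4.3.3 was used (TMM, filterByExpr, quasi-likelihood test, Benjamini-Hochberg adjustment over all genes tested, threshold 0.05), standard errors being taken from the F statistic. BM genotypes used the 6 BM samples, tissues and the interaction all 9. Symbols and coordinates are from GENCODE M21 (GRCm38). CPM is scaled by TMM library sizes, with a prior count of 2 on the log2 scale. The 95% interval of a ratio is exact binomial and covers counting error only. With 3 samples a group the smallest exact permutation p is 0.1. Alternatives were DESeq2 1.42.0, limma 3.58.1 (voom or VST values), other filters and normalizations, the replicate block, a score of the chromosome 1 genes around Ptprc, other sample sets, and each sample left out.

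The genes, gene lists and marker lists were chosen with earlier results of these data known. One marker gene is not reported here and was left out of its sum. Named are the 10 genes, and genes within 1 Mb past the threshold in BM or between tissues or with the 3 largest BM changes in each direction. List genes past the threshold in BM or between tissues, and the 5 genes most like Clec9a and Clec7a, are also named. Interaction calls were not a rule for naming. Group and replicate come from the sample labels. Samples of different groups shared mice, and the labels do not say which mice went into which sample. The main tests treated samples as independent, so p-values measure the spread between these samples and not between separate mice. No pair of replicates was alike within sampling noise (chi-square per gene 28.9 to 257). No column belonged to another series.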

Additional observations from a re-analysis of the deposited data

How the results depend on the processing

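The BM count of 2 of the 10 genes past the threshold became 0 with limma on the deposited VST values, 1 (Clec7a) with at least 10 counts in every sample, which drops Clec9a, and 1 (Clec9a) with the chromosome 1 score as a covariate or with all 9 samples in one fit. It was 1 to 2 when each sample was left out. The tissue count of 4 became 2 with at least 10 counts in every sample, where Olr1 and Clec1b are not tested, 2 (Klrk1 and Clec1b) with the replicate block, and 0 with the chromosome 1 score. It was 3 to 5 when each sample was left out. The interaction count of 0 was again 0 when any BM sample was left out. Leaving out a KO spleen sample leaves 1 spleen sample of each genotype, so no count is given for those fits. Over all genes the BM count of 4 was 11 with DESeq2, 10 without a filter on low counts, 0 on VST values and 2 to 15 with a sample left out. The tissue count of 2631 was 1246 with the replicate block, 1336 in DNGR-1 KO samples and 98 with the chromosome 1 score. The interaction count of 1192 was 2170 with DESeq2, 167 with at least 10 counts in every sample, 635 with the replicate block and 831 to 1041 with a BM sample left out. Causes were not tested beyond the genes and samples dropped.

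Same-numbered BM samples had correlations of 0.10, 0.099 and -0.082 of their deviations from the group means, not all above 0.1, and the sources used here do not say whether a number marks the same mice, so the numbers were not used as pairs. With the replicate block the BM count was again 2, and the Clec1a interaction of 0.70 turned to -0.46 on the log2 scale. The Clec9a tissue value of 0.49 turned to -0.64 with the chromosome 1 score. With a sample left out, Clec2d in BM ranged from -0.92 to 0.12, the Clec9a tissue value from -3.11 to 0.73 and the Clec1a interaction from -9.77 to 1.69. The spleen difference of Clec9a of -10.49 was -12.49 with a prior count of 0.5, -10.46 with total counts and -3.29 on VST values, and that of Clec2d of 0.50 was 0.51, 0.47 and 0.11. At this depth 3 counts limit what can be said of Clec12b, Olr1 in spleen and Clec9a in DNGR-1 KO samples.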
